A study of Mus musculus with 12 samples.

Results

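NIH/3T3 cells, an immortalised mouse embryonic fibroblast line labelled as wild type, were treated for 8 h with 200 nM carfilzomib together with 5 µM doxorubicin (CFZ-DOX) and compared with cells given the vehicle DMSO. Each of these groups held 3 libraries of polyadenylated RNA, so 6 of the 12 libraries of the series were used, chosen by their treatment labels, and all expressed genes were examined. The line was grown in medium with serum, and neither group carried a transgene or deletion according to the labels. The labels do not tell whether the replicates came from separate cultures, so that p-values measure the spread among these libraries, which could be technical.

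The proteasome degrades proteins marked with ubiquitin, and carfilzomib blocks its catalytic core covalently. Cells with a blocked proteasome are known to induce chaperones, ubiquitin genes, proteasome subunits and the integrated stress response, in which phosphorylation of eIF2α favours translation of the transcription factor ATF4. The anthracycline doxorubicin inserts itself between the bases of DNA and traps topoisomerase II on it, which breaks DNA, activates p53 and disturbs transcription.

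The CFZ-DOX libraries held 28278879 to 38327183 counts and the DMSO libraries 31024213 to 40134000. The replicates of CFZ-DOX differed more among themselves than those of DMSO, with a chi-square per degree of freedom of 52.74 to 107.47 against 12.37 to 27.94. CFZ-DOX 3 stood apart on the second principal component of log CPM, at −48.9, where CFZ-DOX 1 and 2 lay at 33.6 and 16, and results that rest on it are given without it. The first component, with 88.9% of the variance, separated the groups. In bulk RNA, fewer cells of a kind and less RNA per cell cannot be told apart, and all levels are relative to the other RNA of the same library. Levels are CPM, the counts scaled to a common library total, with TMM factors unless stated, given in the order of replicates 1, 2 and 3, and means are given ± SD of 3 libraries. The reads of overlapping genes and of antisense partners may be shared, since the strand setting of the counting was not given in the sources used here.

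Most of the transcriptome differed between the groups. Of 15351 genes tested with edgeR's quasi-likelihood test, 5937 (38.7%) were called higher and 5338 (34.8%) lower with CFZ-DOX at an adjusted p under 0.05. The difference was at least 2-fold for 4550 of the higher and 3617 of the lower genes, and at least 8-fold for 1345 and 218. The balance between higher and lower depended on the scaling of the libraries. With the library size alone it was 4274 higher and 6625 lower, with the upper quartile 7275 and 4050, and with the summed counts of ribosomal protein genes 1474 and 11040, the last being 71.9% of all genes. The middle log2 fold change over the genes tested was 0.09 with TMM, and this median moved by 0.01 with DESeq2-type size factors, −0.45 with the library size, 0.36 with the upper quartile and −1.75 with ribosomal protein genes. Calls that held in 1 direction under all 5 scalings were 1474 higher (9.60%) and 4050 lower (26.4%). In what follows, rose and fell refer to calls with TMM. Among 9454 protein-coding genes averaging 5 CPM or more, a set chosen after the data were seen, 27.7% rose and 45.8% fell. Counts within gene lists are to be read beside these shares and those over all tested genes. A gene that rose, but not under all 5 scalings, lost or reversed its call with ribosomal scaling, and a gene that fell, but not under all 5, was not called lower with the upper quartile. Without CFZ-DOX 3, 5660 of the higher and 5296 of the lower calls were made again and 0 turned round.

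**Figure D1:**
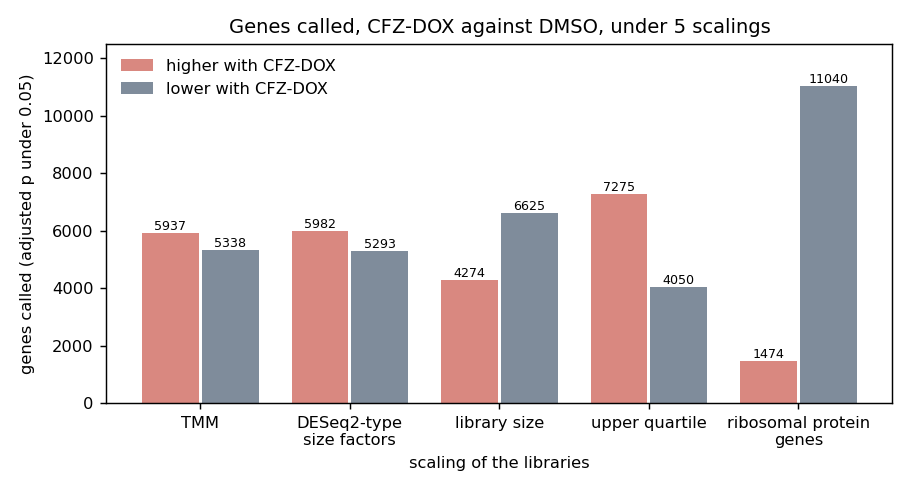
Number of genes called higher and lower with CFZ-DOX than with DMSO at an adjusted p under 0.05 (vertical axis) under 5 scalings of the libraries (horizontal axis). TMM gave 5937 higher and 5338 lower genes, whereas scaling to ribosomal protein genes gave 1474 and 11040.

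The most abundant genes took a larger share of the counts in the CFZ-DOX libraries, although more genes were detected there. The 100 most abundant genes of a library held 34.2 ± 2.68% of the counts with CFZ-DOX and 19.6 ± 0.315% with DMSO, while the number of genes with at least 1 count was 26043 ± 510.07 with CFZ-DOX and 21859 ± 436 with DMSO (SD, n = 3 each). The genes of cytosolic ribosomal proteins, the building blocks of the ribosome, held 10.3, 10.1 and 10.8% of the counts in the CFZ-DOX libraries, against 4.02, 4.3 and 4.37% in the DMSO libraries. Every CFZ-DOX library was above every DMSO library, and the exact two-sided permutation p was 0.1, the smallest that 3 libraries against 3 allow. Larger shares were also held, among other lists, by translation factors with 5.42 ± 0.0705% of the counts with CFZ-DOX and 3.4 ± 0.126% with DMSO, and nuclear genes of the respiratory chain with 1.41 ± 0.0642% of the counts with CFZ-DOX and 0.765 ± 0.0205% with DMSO. Extracellular matrix genes held 11.9, 7.69 and 6.95% of the counts in the CFZ-DOX libraries, against 5.31, 3.92 and 4.22% in the DMSO libraries, so that CFZ-DOX 1 was highest by a wide margin. The shares of splicing factors, with 0.626 ± 0.0669% of the counts with CFZ-DOX and 1.31 ± 0.0713% with DMSO, and of mitosis genes, with 0.144 ± 0.0442% of the counts with CFZ-DOX and 0.472 ± 0.0429% with DMSO, were smaller in every CFZ-DOX library. Each of these differences also had an exact permutation p of 0.1.

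**Figure D2:**
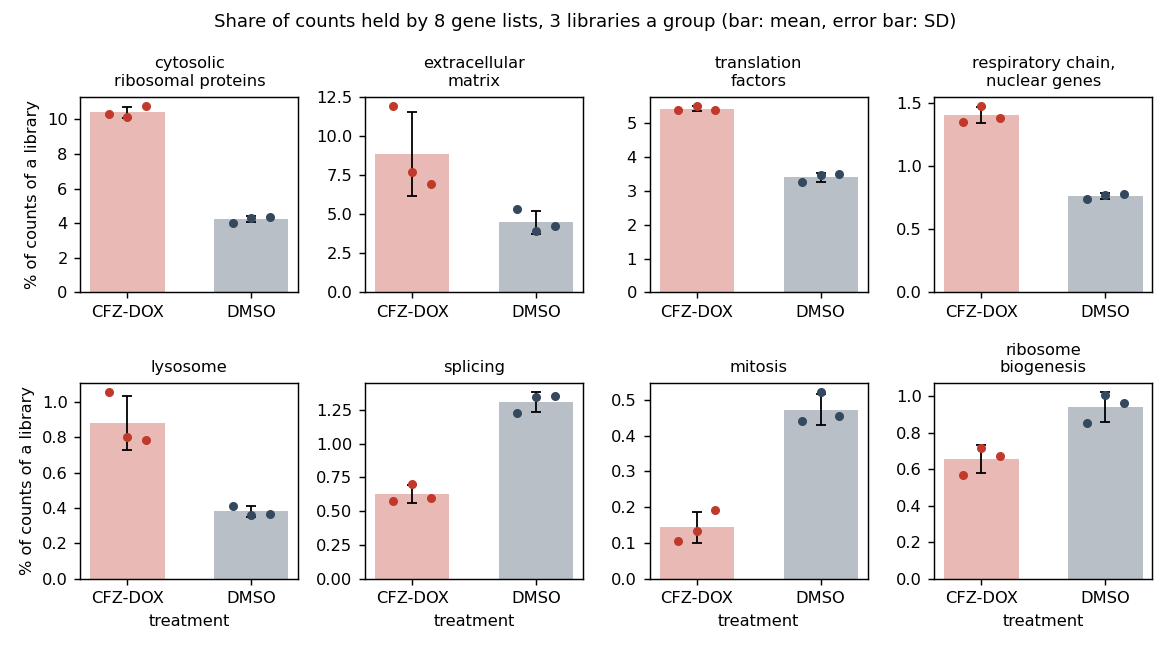
Percent of a library's counts (vertical axes, from 0) held by the genes of each named list in the CFZ-DOX libraries (left, red) and the DMSO libraries (right, blue), with points for libraries, bars for means and error bars for SD of 3 libraries. Cytosolic ribosomal protein genes held 10.4% of the counts with CFZ-DOX and 4.23% with DMSO, and mitosis genes 0.144% and 0.472%.

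Genes of cytosolic ribosomal proteins and nuclear genes of the respiratory chain rose nearly as a block under TMM, but not under ribosomal scaling, which sets the sum of the ribosomal protein genes equal by construction. Of 82 ribosomal protein genes 81 rose and 0 fell, with a median log2 fold change of 1.77 beside 0.09 over all genes, and 4 of them rose under all 5 scalings while 7 were called lower with ribosomal scaling. Rplp1, a protein of the ribosomal stalk, had 4070.1, 3284 and 2835 CPM in the CFZ-DOX libraries, against 749, 789 and 780.1 CPM in the DMSO libraries, a log2 fold change of 2.14 (SE 0.21, adjusted p = 8.69e-06). Its 3 values with CFZ-DOX lay far above those with DMSO, and Rpl31 (2.12) and Rplp0 (2.03) had the same pattern. Of 74 nuclear genes of the respiratory chain 69 rose and 0 fell, with a median of 1.45, but 29 were called lower with ribosomal scaling. Cox6a1, a subunit of cytochrome c oxidase, rose 4.68-fold, Ndufa1 of complex I 4.63-fold and Cox4i1 4.37-fold. Ribosomal proteins of mitochondria did not follow, as 23 of 73 rose (31.5%) and 29 fell (39.7%), near the 38.7% and 34.8% over all tested genes. With ribosomal scaling 69 were called lower. Mrpl13 had a log2 fold change of 1.45 and Mrps2 of −3.09. Among 37 translation factors 18 rose and 10 fell, with 30 called lower under ribosomal scaling. Eef1a1, the factor that brings aminoacyl-tRNA to the ribosome, had the highest mean of any tested gene in the CFZ-DOX group, with 27449.6, 22142 and 19800.2 CPM in the CFZ-DOX libraries, against 7318, 7444 and 7373 CPM in the DMSO libraries, whereas Eif3a, a scaffold of initiation factor eIF3, fell 3.26-fold under all 5 scalings. Eef2, the translocation factor, rose 3.22-fold, and Gapdh, a glycolytic enzyme often used as a reference, rose 3.16-fold under TMM with a log2 fold change of −0.10 under ribosomal scaling.

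In the proteasome, the called genes of the catalytic core were all higher under TMM and all lower under ribosomal scaling. All 14 genes of the core particle passed the filter, and 12 rose and 0 fell, with a median log2 fold change of 0.52, while all 14 were called lower with ribosomal scaling. Psmb5, the subunit that carfilzomib binds, had 50.5, 60.3 and 43.8 CPM in the CFZ-DOX libraries, against 35, 38.3 and 35.9 CPM in the DMSO libraries. Its groups did not overlap, but the log2 fold change was only 0.50 (SE 0.16, adjusted p = 0.0139), and the call was lost without CFZ-DOX 2 (0.37), without DMSO 1 (0.44) and without DMSO 3 (0.44). Psma7 rose 2.4-fold and Psmb6 2.2-fold. In the regulatory particle, which recognises and unfolds substrates, 7 of 19 genes rose (36.8%) and 6 fell (31.6%). Over all genes these shares were 38.7% and 34.8%, and among protein-coding genes averaging 5 CPM or more 27.7% and 45.8%. Ribosomal scaling called 18 of the 19 lower. Without CFZ-DOX 3, 9 rose and 6 fell. Psmd8 rose 2.85-fold and the ubiquitin receptor Psmd4 1.99-fold, while Psmd11, which contacts the core, had 83.2, 109 and 78.3 CPM in the CFZ-DOX libraries, against 159, 179.6 and 167 CPM in the DMSO libraries, a fall under all 5 scalings with no overlap. The 11 genes of proteasome activators and assembly factors all changed, 5 up and 6 down, with 9 called lower under ribosomal scaling. The maturation factor Pomp rose 2.74-fold and the activator subunit Psme1 2.84-fold. The assembly chaperone Psmd5 fell 4.33-fold and the activator Psme4 2.78-fold, both under all 5 scalings. Nfe2l1, the transcription factor known to drive proteasome genes when the proteasome is blocked, had 432, 299 and 337 CPM in the CFZ-DOX libraries, against 331, 312 and 326 CPM in the DMSO libraries. The groups overlapped, and its log2 fold change of 0.14 (SE 0.18, adjusted p = 0.493) did not pass.

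The ubiquitin genes Ubb and Rps27a both rose under TMM. Ubb (ENSMUSG00000019505, chr11:62441997-62444039, plus strand, GRCm39), which codes for a chain of ubiquitin units, had 2034, 1580.4 and 1598 CPM in the CFZ-DOX libraries, against 325, 344 and 314 CPM in the DMSO libraries. This was 5.3-fold with no overlap, a log2 fold change of 2.41 (SE 0.19, adjusted p = 3.13e-06), and the call held under all 5 scalings. Rps27a, which codes for ubiquitin fused to a ribosomal protein, had a log2 fold change of 1.60 and was not called with ribosomal scaling. The segregase p97 and its cofactors and shuttles gave 2 higher and 6 lower of 14, with 13 lower under ribosomal scaling, and 4 higher without CFZ-DOX 3. Zfand2a, a proteasome-associated protein induced by arsenite, rose 3.13-fold and the shuttle Ubqln2 fell 5.22-fold, and only the fall was called under all 5 scalings.

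Cytosolic chaperones rose more often than they fell under TMM, whereas most were lower under ribosomal scaling, and members differed widely. Of 30 heat shock genes 18 rose and 7 fell, with a median log2 fold change of 0.62, and 24 were called lower with ribosomal scaling. Hspa1b (ENSMUSG00000090877, chr17:35175412-35178214, minus strand, GRCm39), the inducible HSP70, had 76.5, 55.4 and 225 CPM in the CFZ-DOX libraries, against 19.2, 15 and 15.7 CPM in the DMSO libraries. All 3 CFZ-DOX values lay above all DMSO values, and CFZ-DOX 3 was highest by far. The log2 fold change was 2.84 (SE 0.52, adjusted p = 0.00148), and 1.90 without CFZ-DOX 3. Its near-identical neighbour Hspa1a had 7.38, 4.3 and 24.4 CPM in the CFZ-DOX libraries, against 1.59, 2.01 and 1.59 CPM in the DMSO libraries, with 2.80 and, without CFZ-DOX 3, 1.66. Reads of these copies cannot be fully separated, so the division of counts between them is uncertain. Hspa8, the constitutive HSC70, had 2861 ± 348 CPM with CFZ-DOX and 1194 ± 109.5 CPM with DMSO and rose 2.4-fold, and Hspa2, another HSP70, rose 4.79-fold. Hsp90ab1 rose 1.94-fold, while the HSP90 co-chaperone Ptges3, with 32.7, 39.6 and 41.3 CPM in the CFZ-DOX libraries, against 289.8, 336 and 333 CPM in the DMSO libraries, fell 8.44-fold. Hspa4, an exchange factor of HSP70, fell 2.85-fold, and both falls held under all 5 scalings. Of the 8 subunits of the chaperonin TRiC 5 rose, led by Cct7 (1.26), and 1 fell under TMM, with all 8 lower under ribosomal scaling.

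The promoter of Hspa1b is printed because this gene had the largest rise among the called chaperones with all libraries, though not without CFZ-DOX 3 (1.90, against 2.06 for Hspa2), and that of Cdk1 because the mitosis genes described later fell together. The windows are the 250 bases before the annotated start from RefSeq (mouse build GRCm38.p6), read 5′ to 3′ on the strand of the gene. Capitals mark matches on either strand, to GAANNTTC or TTCNNGAA (cores of heat shock elements) for Hspa1b and to CCAAT, the box of that name, or TTTGAA, the cell cycle homology region, for Cdk1. The windows lie at chr17:34959239-34959488, minus strand and chr10:69352913-69353162, minus strand.
Hspa1b: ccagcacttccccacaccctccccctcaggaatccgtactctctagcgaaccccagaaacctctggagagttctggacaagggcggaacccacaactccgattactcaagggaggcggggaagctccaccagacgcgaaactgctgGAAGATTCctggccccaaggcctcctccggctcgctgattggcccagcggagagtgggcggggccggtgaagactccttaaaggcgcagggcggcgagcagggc
Cdk1: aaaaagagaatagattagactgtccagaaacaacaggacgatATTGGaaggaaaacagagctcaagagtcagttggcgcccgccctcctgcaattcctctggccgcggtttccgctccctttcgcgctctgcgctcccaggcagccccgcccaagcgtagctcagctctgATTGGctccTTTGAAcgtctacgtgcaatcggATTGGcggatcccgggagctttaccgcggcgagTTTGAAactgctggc
The match in Hspa1b starts 104 bases before the start of the gene. Cdk1 held CCAAT matches at 208, 80 and 48 bases and TTTGAA matches at 71 and 15 bases before its start. Of 32851 such windows of all genes 6.69% held GAANNTTC, 7.17% TTCNNGAA, 33.8% CCAAT and 16% TTTGAA. The heat shock list matched 33 windows of 25 genes, since a gene can have several starts, and 8 of them (24.2%) held GAANNTTC. The mitosis list matched 31 windows of 29 genes, of which 24 (77.4%) held CCAAT and 11 (35.5%) TTTGAA. Genes called in either direction under all 5 scalings showed no such shares, since 34.9% of the windows of lower genes held CCAAT and 11.2% TTTGAA, and 5.55% of those of higher genes held GAANNTTC. Such matches describe letters of the sequence and do not show that a factor bound there.

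Genes of the oxidative stress response and of lysosomal and autophagic degradation rose more often than they fell under TMM, a balance that ribosomal scaling turned round. Of 25 tested targets of NRF2, the main factor of this response, 13 rose and 4 fell, with 7 lower without CFZ-DOX 3 and 18 lower under ribosomal scaling. Gstm1, a glutathione transferase, rose 4.19-fold and the ferritin heavy chain Fth1 3.66-fold. Gsr, which regenerates glutathione, fell 3.09-fold, and the cystine carrier Slc7a11 had 19.99 ± 2.77 CPM with CFZ-DOX and 44.9 ± 7.12 CPM with DMSO, a fall of 2.25-fold. Hmox1, haem oxygenase, had 37.5, 27.1 and 61 CPM in the CFZ-DOX libraries, against 33.2, 33.5 and 38.2 CPM in the DMSO libraries. Its groups overlapped, and the log2 fold change of 0.26 (SE 0.25, adjusted p = 0.368) was −0.20 without CFZ-DOX 3. The autophagy receptor Sqstm1 had 410.1, 411 and 332 CPM in the CFZ-DOX libraries, against 314, 298 and 304 CPM in the DMSO libraries, which did not overlap, yet its log2 fold change of 0.33 (SE 0.16, adjusted p = 0.0849) did not pass with all libraries and passed without CFZ-DOX 3 (adjusted p = 0.00567). Among 23 lysosomal genes 18 rose and 3 fell, with a median of 1.51 and 9 called lower under ribosomal scaling. The protease Ctsb had 1459, 997 and 751 CPM in the CFZ-DOX libraries, against 294, 259 and 232 CPM in the DMSO libraries, and Ctsd (3.99-fold) and the activator precursor Psap (3.96-fold) were likewise higher in every CFZ-DOX library. Of 24 autophagy genes 11 rose and 2 fell, with 4 lower without CFZ-DOX 3 and 19 lower under ribosomal scaling. Map1lc3a, which coats autophagosomes, rose 4.22-fold and Becn1 3.16-fold, while Atg5 fell 2.03-fold.

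The integrated stress response did not move in a single direction. Of 29 tested genes of this list 13 rose (44.8%) and 9 fell (31.0%) with all libraries, beside 38.7% and 34.8% over all genes. Among protein-coding genes averaging 5 CPM or more 27.7% rose and 45.8% fell. Of the 9 falls 8 held under all 5 scalings, and 23 genes of the list were called lower under ribosomal scaling. Without CFZ-DOX 3, 18 rose and 10 fell, beside 6184 higher and 6290 lower over all genes. The transcription factor at its centre, Atf4, chosen for the text after its values were seen, had 79.5, 70.8 and 107 CPM in the CFZ-DOX libraries, against 536, 621 and 589.8 CPM in the DMSO libraries. Every CFZ-DOX library was far below every DMSO library, and the log2 fold change was −2.76 (SE 0.20, adjusted p = 2.14e-06). Trib3, a pseudokinase target of ATF4, had 4.14, 2.87 and 6.28 CPM in the CFZ-DOX libraries, against 56.2, 58.4 and 64.9 CPM in the DMSO libraries and fell 13.4-fold. Chac1, a glutathione-degrading target also chosen after its values were seen, had 3.09, 1.72 and 3.68 CPM in the CFZ-DOX libraries, against 26.2, 31.5 and 31 CPM in the DMSO libraries and fell 10.4-fold. Falls of these 3 genes were called under all 5 scalings. In the other direction, Atf3, a stress-induced repressor, had 16.7, 10.4 and 36.8 CPM in the CFZ-DOX libraries, against 5.2, 4.93 and 5.52 CPM in the DMSO libraries. The groups did not overlap and CFZ-DOX 3 was highest, with a log2 fold change of 2.03 (SE 0.38, adjusted p = 0.000717) that was 1.29 without CFZ-DOX 3. Ddit3, which codes for CHOP, had 54.4, 51.3 and 123 CPM in the CFZ-DOX libraries, against 31.2, 30.9 and 37.8 CPM in the DMSO libraries, and its log2 fold change of 1.19 (SE 0.30, adjusted p = 0.00422) was 0.58 without CFZ-DOX 3. Ppp1r15a, the phosphatase subunit that ends eIF2α phosphorylation, rose 4.87-fold, with 81.3, 66 and 146 CPM in the CFZ-DOX libraries, against 23.9, 20.2 and 16.2 CPM in the DMSO libraries. Nupr1 (1.52) and the serine synthesis enzyme Phgdh (1.44) rose. Aminoacyl-tRNA synthetases gave 5 higher (26.3%) and 4 lower (21.1%) of 19, both below the 38.7% and 34.8% over all genes. All 19 were lower under ribosomal scaling, and the log2 fold changes ranged from 1.06 for Kars1 to −2.64 for Iars1.

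The promoters of Chac1 and Atf3 are shown together because these genes of 1 list moved in opposite directions while both windows held the same motif. Capitals mark matches to TGATGNAA, the core of the C/EBP-ATF response element, on either strand, in RefSeq windows (GRCm38.p6) at chr2:119350992-119351241, plus strand and chr1:191183334-191183583, minus strand.
Chac1: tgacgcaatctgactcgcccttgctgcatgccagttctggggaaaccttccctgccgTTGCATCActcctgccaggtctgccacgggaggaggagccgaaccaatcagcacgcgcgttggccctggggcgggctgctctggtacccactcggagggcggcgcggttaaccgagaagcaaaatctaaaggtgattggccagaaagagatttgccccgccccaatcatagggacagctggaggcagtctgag
Atf3: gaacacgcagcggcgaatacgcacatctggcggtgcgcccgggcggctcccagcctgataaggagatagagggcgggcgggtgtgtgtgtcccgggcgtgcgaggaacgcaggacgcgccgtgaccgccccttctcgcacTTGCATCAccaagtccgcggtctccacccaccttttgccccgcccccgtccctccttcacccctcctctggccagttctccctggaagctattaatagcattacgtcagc
The matches start 193 and 110 bases before the starts of Chac1 and Atf3. The motif stood in 3.45% of the windows of all genes and in 7 of 31 windows (22.6%), of 26 genes, of the integrated stress response list, and in 3.29% of the windows of genes called higher and 1.97% of those of genes called lower under all 5 scalings.

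Genes of the endoplasmic reticulum stress response gave 16 higher and 3 lower of 26, with 19 lower under ribosomal scaling. Dnajb9, a luminal co-chaperone, rose 3.28-fold and the lectin chaperone Calr, with 3449.7 ± 804 CPM with CFZ-DOX and 1107 ± 85.1 CPM with DMSO, 3.12-fold. Herpud1, which acts in degradation from the reticulum, fell 6.67-fold, and the transcription factor Xbp1 fell 2.48-fold, both under all 5 scalings.

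**Figure D3:**
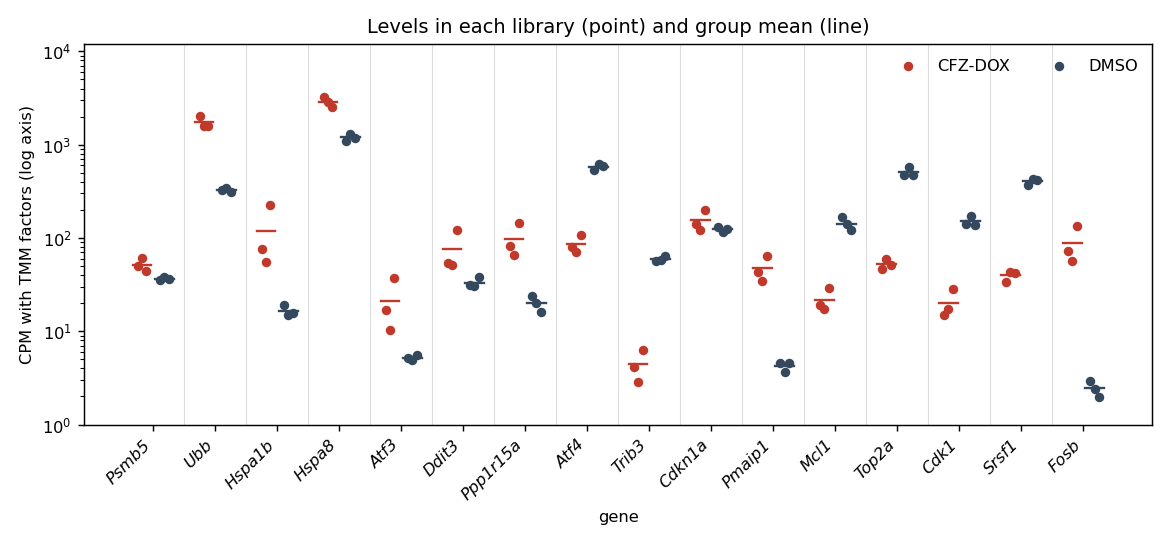
Level of each named gene (horizontal axis) in CPM with TMM factors on a log axis, with CFZ-DOX left (red) and DMSO right (blue), points for the 3 libraries and lines for the means. Hspa1b lay at 55.4 to 225 CPM with CFZ-DOX and 15 to 19.2 with DMSO, Atf4 at 70.8 to 107 and 536 to 621, and Cdkn1a overlapped at 122 to 200.2 and 115 to 132.

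Targets of p53 were divided in the same way. The gene of p53 itself, Trp53, had 123, 148 and 161 CPM in the CFZ-DOX libraries, against 141, 159.7 and 157 CPM in the DMSO libraries, with overlapping groups and a log2 fold change of −0.08 (SE 0.15, adjusted p = 0.652). Cdkn1a, which codes for the cell cycle inhibitor p21, had 141, 122 and 200.2 CPM in the CFZ-DOX libraries, against 132, 115 and 124 CPM in the DMSO libraries, again overlapping, with 0.32 (SE 0.19, adjusted p = 0.152) and 0.0021 without CFZ-DOX 3. Mdm2, the ubiquitin ligase of p53, had 129 ± 34.2 CPM with CFZ-DOX and 109.6 ± 10.2 CPM with DMSO, a log2 fold change of 0.24 (SE 0.19, adjusted p = 0.289) that was −0.08 without CFZ-DOX 3. Of 22 targets of growth arrest and repair 10 rose and 4 fell, with 7 lower without CFZ-DOX 3 and 16 lower under ribosomal scaling. Plk3, a stress kinase, had 77.4, 70.5 and 124 CPM in the CFZ-DOX libraries, against 14.8, 12.3 and 8.78 CPM in the DMSO libraries and rose under all 5 scalings, and Trp53inp1 rose 3.66-fold. Phlda3, an inhibitor of AKT, had 27.6, 23.7 and 46 CPM in the CFZ-DOX libraries, against 215, 223 and 215 CPM in the DMSO libraries and fell 6.71-fold, and the stress protein gene Sesn1 fell 3.04-fold. Among 10 tested death targets 6 rose and 3 fell, with 8 lower under ribosomal scaling. Pmaip1, the BH3-only protein NOXA, had 43.2, 34.8 and 63.4 CPM in the CFZ-DOX libraries, against 4.58, 3.7 and 4.53 CPM in the DMSO libraries. All CFZ-DOX values were several times above all DMSO values, a log2 fold change of 3.47 (SE 0.25, adjusted p = 1.94e-06), called under all 5 scalings. Bax, a pore-forming effector, rose 2.31-fold and the death receptor Eda2r 2.46-fold. The BH3-only protein gene Bid fell 2.2-fold and the effector caspase gene Casp6 2.79-fold, both under all 5 scalings, so that genes known to promote death changed in both directions.

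Within the BCL2 family, 6 of 13 tested genes rose and 6 fell (46.2% each), beside 38.7% and 34.8% over all tested genes. Ribosomal scaling called 10 of the 13 lower, beside 71.9% of all genes. Bcl2l11, the BH3-only protein BIM, had 59.1, 55.8 and 78 CPM in the CFZ-DOX libraries, against 14.7, 12.7 and 11.9 CPM in the DMSO libraries and rose 4.92-fold. The survival protein gene Mcl1 had 19.1, 17.4 and 28.8 CPM in the CFZ-DOX libraries, against 166, 142 and 121 CPM in the DMSO libraries, a fall of 6.55-fold with no overlap and a log2 fold change of −2.71 (SE 0.22, adjusted p = 3.25e-06). Bcl2l1, which codes for BCL-XL, had 21.1, 17.7 and 20.3 CPM in the CFZ-DOX libraries, against 89, 88.3 and 66.6 CPM in the DMSO libraries and fell 4.13-fold. These 2 falls held under all 5 scalings, and Bcl2l11 was not called with ribosomal scaling.

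Among the targets of doxorubicin, Top2a, the topoisomerase II of dividing cells, had 46.8, 60.002 and 51 CPM in the CFZ-DOX libraries, against 474, 578 and 469 CPM in the DMSO libraries. Every CFZ-DOX library was below every DMSO library, with a fall of 9.64-fold and a log2 fold change of −3.27 (SE 0.19, adjusted p = 9.67e-07). Top2b, the form found in all cells, fell less, by 2.2-fold, with 67.7 ± 0.836 CPM with CFZ-DOX and 149 ± 8.6 CPM with DMSO (SD, n = 3 each), and both falls held under all 5 scalings. Abcb1b, a gene of the efflux pump P-glycoprotein, had 319.8, 284 and 212 CPM in the CFZ-DOX libraries, against 179, 214 and 179 CPM in the DMSO libraries. These groups overlapped, and its log2 fold change of 0.51 (SE 0.19, adjusted p = 0.0292) lost the call when any library except CFZ-DOX 3 was left out, lying between 0.31 without CFZ-DOX 1 and 0.57 without DMSO 2. The related pump gene Abcb1a lay at 1.44 ± 0.647 CPM with CFZ-DOX and 1.86 ± 0.205 CPM with DMSO and was not called, at a log2 fold change of −0.37 (SE 0.34, adjusted p = 0.347).

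Genes of cell division were mostly lower. Of 35 mitosis genes 29 fell, 23 of them under all 5 scalings, and 2 rose, with all 35 lower under ribosomal scaling and a median log2 fold change of −1.15. Cdk1, the mitotic kinase, had 15.1, 17.2 and 28.2 CPM in the CFZ-DOX libraries, against 143, 173 and 137 CPM in the DMSO libraries and its partner cyclin Ccna2 had 15.3, 13.9 and 26.1 CPM in the CFZ-DOX libraries, against 147, 178 and 153 CPM in the DMSO libraries. No CFZ-DOX library came near a DMSO library for either gene, and the falls were 7.47-fold and 8.61-fold. Aurkb, a kinase of chromosome segregation, fell 5.15-fold. The 2 genes of this list that rose were the securin Pttg1 (0.80) and the kinase Aurka (0.47), whose groups overlapped and whose call was lost without CFZ-DOX 1 (0.40), CFZ-DOX 3 (0.23), DMSO 1 (0.37) or DMSO 3 (0.36). DNA replication genes gave 21 lower (55.3%) and 4 higher (10.5%) of 38. Of protein-coding genes averaging 5 CPM or more 45.8% were lower and 27.7% higher, so the excess of falls was moderate. All 38 were lower under ribosomal scaling, beside 71.9% of all genes. The licensing factor Cdc6 fell 6.73-fold and the ribonucleotide reductase subunit Rrm1 2.51-fold.

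Of 35 genes of DNA damage signalling and repair 22 fell, 17 of them under all 5 scalings, and 1 rose, with all 35 lower under ribosomal scaling and 3 higher without CFZ-DOX 3. H2ax, the histone variant phosphorylated at breaks, had 7.77, 5.78 and 10.3 CPM in the CFZ-DOX libraries, against 55.9, 63 and 52.5 CPM in the DMSO libraries and fell 7.16-fold. The checkpoint kinase Chek2 fell 6.64-fold and the recombination gene Brca2 6.09-fold, with no overlap between the groups. The gene that rose, Xrcc3, a recombination factor, had a log2 fold change of 0.48 (SE 0.16, adjusted p = 0.0212) and lost its call without CFZ-DOX 1, DMSO 1, DMSO 2 or DMSO 3 (0.40, 0.45, 0.47 and 0.40). Replication-dependent histone genes, whose normal transcripts lack a poly(A) tail, went the other way. Of 62 listed genes 34 passed the filter, which a gene could do through the CFZ-DOX libraries alone, and 29 of these rose and 2 fell, with 16 higher and 2 lower under all 5 scalings. They held 0.0068 ± 0.000718% of the counts with CFZ-DOX and 0.00268 ± 0.000322% with DMSO, and H2bc21 had 7.99, 8.57 and 11.5 CPM in the CFZ-DOX libraries, against 0.896, 1.23 and 0.862 CPM in the DMSO libraries. Copies of these genes are nearly identical, so counts of single members are uncertain. H1f0, a linker histone with polyadenylated transcripts, had 15.1, 15.9 and 16.5 CPM in the CFZ-DOX libraries, against 304, 285 and 319.7 CPM in the DMSO libraries and fell 19.2-fold.

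Genes that serve the making and processing of RNA were mostly lower. Of 31 splicing factors of the SR and hnRNP families 20 fell, 18 under all 5 scalings, and 1 rose, with all 31 lower under ribosomal scaling and 3 higher without CFZ-DOX 3. Srsf1 had 33.9, 43.3 and 41.9 CPM in the CFZ-DOX libraries, against 373, 426 and 419 CPM in the DMSO libraries, a fall of 10.2-fold with a log2 fold change of −3.35 (SE 0.18, adjusted p = 7.82e-07) and no overlap. Srsf2 fell 7.88-fold and Srsf3 4.25-fold. Hnrnph1 rose 1.52-fold, a call that was lost when any library except CFZ-DOX 3 was left out (0.34 without CFZ-DOX 1 to 0.65 without DMSO 2). Of 35 genes of RNA polymerase I and ribosome assembly 22 fell and 3 rose, with 34 lower under ribosomal scaling and 5 higher without CFZ-DOX 3. Polr1b, a large subunit of RNA polymerase I, had 5.72, 5.78 and 6.38 CPM in the CFZ-DOX libraries, against 46.1, 59.3 and 51.1 CPM in the DMSO libraries and fell 8.75-fold, and the nucleolar GTPase Gnl3 fell 7.12-fold, both under all 5 scalings, while Rrp9 rose 2.27-fold. Thus 22 of 35 ribosome assembly genes fell where 81 of 82 ribosomal protein genes rose under TMM, and under ribosomal scaling the counts were 34 and 7 lower.

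Among 31 genes of transcription by RNA polymerase II 17 fell (54.8%) and 6 rose (19.4%), with 29 lower under ribosomal scaling. Of protein-coding genes averaging 5 CPM or more 45.8% fell and 27.7% rose. Polr2a, the largest subunit, had 989, 1033 and 1215 CPM in the CFZ-DOX libraries, against 306, 379 and 301 CPM in the DMSO libraries and rose 3.28-fold, with a log2 fold change of −0.01 under ribosomal scaling. Hexim1, which holds the elongation kinase P-TEFb inactive, had 298, 244 and 354 CPM in the CFZ-DOX libraries, against 68.6, 60.9 and 55.3 CPM in the DMSO libraries and rose 4.84-fold under all 5 scalings. Nelfa, of the pausing complex NELF, fell 5.37-fold under all 5 scalings. Ccnq, a cyclin partner of CDK10 and the lowest gene of the comparison by the rule for named genes, had 0.432, 0.123 and 0.451 CPM in the CFZ-DOX libraries, against 12.6, 11.9 and 13.8 CPM in the DMSO libraries and fell 36.9-fold. Malat1, a long noncoding RNA retained in the nucleus, had 2541, 1904 and 1122 CPM in the CFZ-DOX libraries, against 218, 206 and 173 CPM in the DMSO libraries and rose 9.31-fold under all 5 scalings, and it was highest in CFZ-DOX 1.

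**Figure D4:**
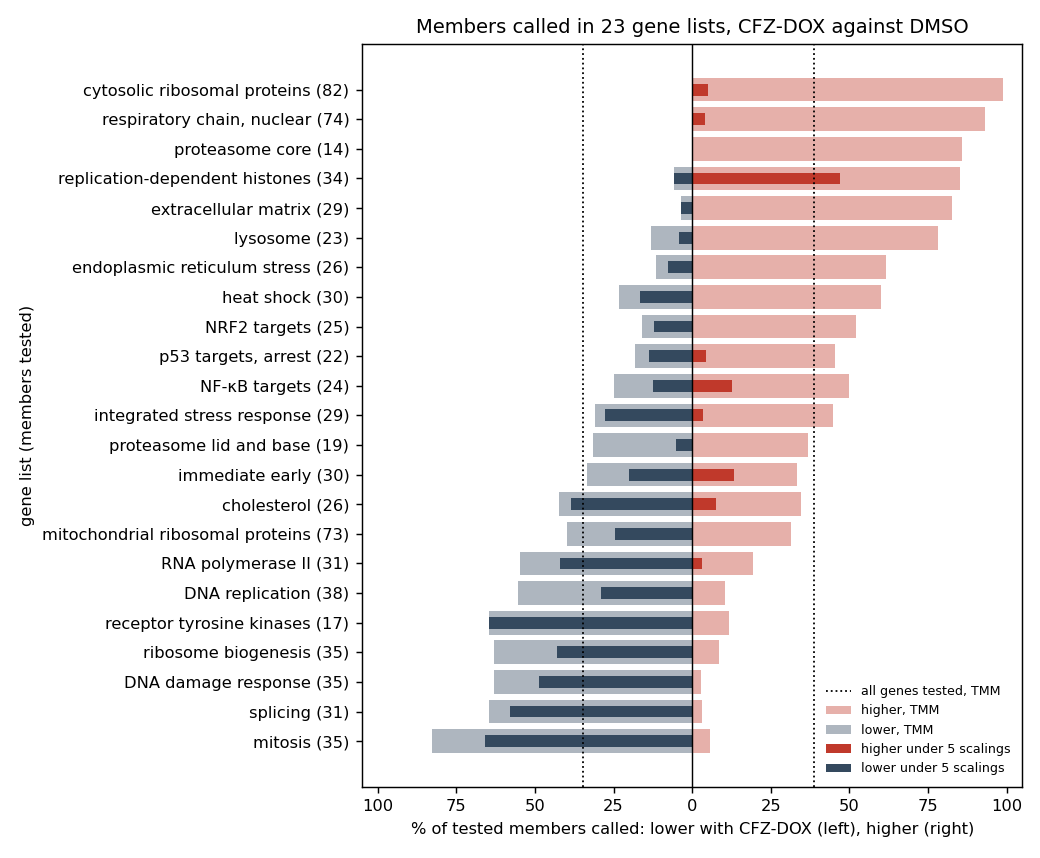
Percent of the tested members of each gene list (vertical axis, members tested in brackets) that were called higher (right, red) or lower (left, blue) with CFZ-DOX than with DMSO, with pale bars for TMM, dark bars for calls under 5 scalings and dotted lines for all genes tested (38.7% higher, 34.8% lower). Among protein-coding genes averaging 5 CPM or more, 27.7% were called higher and 45.8% lower under TMM. Under TMM, ribosomal protein and respiratory chain genes lay at the top and mitosis, splicing and DNA damage genes at the bottom, and of the 81 ribosomal protein genes called higher under TMM 4 were called under 5 scalings, while ribosomal scaling called 14 of 14 proteasome core genes lower.

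Short-lived regulators moved in both directions, in shares near those over all tested genes when all libraries were used. Of 30 immediate early genes 10 rose and 10 fell, with 4 higher and 6 lower under all 5 scalings and 18 lower under ribosomal scaling. Leaving out CFZ-DOX 3 gave 9 higher and 13 lower. Fosb, a subunit of AP-1, had 71.7, 57.2 and 134 CPM in the CFZ-DOX libraries, against 2.92, 2.42 and 1.99 CPM in the DMSO libraries. This was 35.9-fold with no overlap, a log2 fold change of 5.16 (SE 0.34, adjusted p = 1.49e-06). Fos had 32.7, 22.1 and 69.5 CPM in the CFZ-DOX libraries, against 4.38, 0.541 and 0.62 CPM in the DMSO libraries, so that DMSO 1 was high within its group. Its log2 fold change of 4.50 (SE 0.9971, adjusted p = 0.00794) was 6.12 without DMSO 1 and 3.81 without CFZ-DOX 3. Egr2 had 76.2, 65.5 and 98.5 CPM in the CFZ-DOX libraries, against 19.5, 2.27 and 1.8 CPM in the DMSO libraries, with DMSO 1 high again, and a log2 fold change of 3.35 (SE 1.09, adjusted p = 0.0403). Its call was lost when any library except DMSO 1 was left out, at 2.84 without DMSO 3 to 3.47 without CFZ-DOX 2, and the log2 fold change was 5.25 without DMSO 1. The nuclear receptor Nr4a2 rose 5.39-fold, and Zfp36l2, which destabilises mRNAs, fell 6.08-fold. In the KLF, MYC and ID group 10 of 29 rose and 11 fell, with 23 lower under ribosomal scaling. Here 7 were higher and 15 lower without CFZ-DOX 3. Mxd1, an antagonist of MYC, had 56.5, 47.1 and 103 CPM in the CFZ-DOX libraries, against 5.02, 4.2 and 3.88 CPM in the DMSO libraries and rose 15.7-fold under all 5 scalings, whereas Myc had 31.1, 23.5 and 44.9 CPM in the CFZ-DOX libraries, against 105.3, 86.9 and 70.3 CPM in the DMSO libraries and fell 2.64-fold. Klf2 fell 11.4-fold and Klf6 7.39-fold under all 5 scalings.

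Genes of growth factor signalling were mostly lower. Of 17 tested receptor tyrosine kinases 11 fell, all 11 under all 5 scalings, and 2 rose, with 16 lower under ribosomal scaling. Pdgfra, a receptor of platelet-derived growth factor, had 35.9, 22.1 and 23.5 CPM in the CFZ-DOX libraries, against 219.6, 125 and 112 CPM in the DMSO libraries and fell 5.59-fold, Met, the receptor of hepatocyte growth factor, fell 6.35-fold and Ror1 12.8-fold. Epha2, an ephrin receptor, rose 3.08-fold. Of 16 feedback inhibitors of MAP kinases 9 fell, all 9 under all 5 scalings, and 3 rose, with 13 lower under ribosomal scaling. Spred1 had 12, 9.84 and 15 CPM in the CFZ-DOX libraries, against 125, 127 and 112 CPM in the DMSO libraries and fell 9.88-fold, and the phosphatase Dusp4 rose 4.86-fold.

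Inflammatory and interferon genes rose more often than they fell under TMM, but not under ribosomal scaling. Of 24 tested NF-κB genes 12 rose and 6 fell, with 11 lower under ribosomal scaling. Ptgs2, the inducible cyclooxygenase, had 663, 794 and 445 CPM in the CFZ-DOX libraries, against 173, 96 and 69.2 CPM in the DMSO libraries and rose 5.63-fold with no overlap. Tnfaip3, a feedback inhibitor, had a log2 fold change of 1.64 (SE 0.40, adjusted p = 0.00352), or 0.84 without CFZ-DOX 3, and the chemokine Cxcl5 fell 4.7-fold. Of 15 tested interferon genes 8 rose and 2 fell, with 8 lower under ribosomal scaling. Tap1, the peptide transporter of antigen presentation, had 54.4, 43.5 and 82.6 CPM in the CFZ-DOX libraries, against 12.2, 9.28 and 10.9 CPM in the DMSO libraries and rose under all 5 scalings, B2m rose 4.28-fold, and Ifit2, with 6.41, 6.64 and 4.78 CPM in the CFZ-DOX libraries, against 71.8, 76.7 and 65.7 CPM in the DMSO libraries, fell 12-fold.

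Metabolic and structural genes differed by group. Glycolytic genes gave 11 higher and 2 lower of 18, with 12 lower under ribosomal scaling: Pkm, pyruvate kinase, rose 3.05-fold and the glucose transporter Slc2a1, with 48.3 ± 6.78 CPM with CFZ-DOX and 218 ± 24.7 CPM with DMSO, fell 4.51-fold. Sterol genes gave 9 higher (34.6%) and 11 lower (42.3%) of 26, beside 38.7% and 34.8% over all tested genes. Of these falls 10 held under all 5 scalings, and 23 genes of the list were lower under ribosomal scaling. Tm7sf2, a sterol reductase, had 25.4, 21.2 and 23.5 CPM in the CFZ-DOX libraries, against 3.94, 3.63 and 3.99 CPM in the DMSO libraries and rose 6.07-fold, and Msmo1 and the sterol sensor partner Insig1 fell 7.61-fold and 4.58-fold. Of 29 tested matrix genes 24 rose and 1 fell, with 12 lower under ribosomal scaling. Fn1, fibronectin, had 33362, 17379.5 and 11658 CPM in the CFZ-DOX libraries, against 7357, 4658 and 4372 CPM in the DMSO libraries, a spread of almost 3-fold among the CFZ-DOX libraries. Its log2 fold change of 1.93 (SE 0.38, adjusted p = 0.000983) was 1.34 without CFZ-DOX 1. Col1a1 (1.37), Col1a2 (1.33) and Sparc (1.91) were likewise highest in CFZ-DOX 1 and lowest of the treated libraries in CFZ-DOX 3. Among the DMSO libraries, DMSO 1 was highest for Fn1, Col1a1, Col1a2 and Sparc. Whether replicate 1 differed in both groups for a shared reason was not tested. Timp3, an inhibitor of matrix proteases, fell 2.5-fold. Contractile and SRF target genes gave 11 higher (47.8%) and 6 lower (26.1%) of 23, beside 38.7% and 34.8% over all tested genes, with 17 lower under ribosomal scaling. This list held Cnn1, calponin (1.84), and Amotl2 (−2.73). Actb, cytoplasmic actin, had 1484, 1825 and 886 CPM in the CFZ-DOX libraries, against 2698, 3225 and 2754 CPM in the DMSO libraries and fell 2.07-fold, and Ahnak, a giant scaffold protein, had the largest loss of CPM, with 370.1 ± 60.5 CPM with CFZ-DOX and 1958 ± 232 CPM with DMSO, both under all 5 scalings.

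Clock genes gave 3 higher and 10 lower of 17, with 16 lower under ribosomal scaling, such as Ciart (1.88) and Clock (−1.29). Of 12 tested metallothionein, zinc and iron genes 3 rose and 6 fell, with 11 lower under ribosomal scaling. Mtf1, the metal-responsive factor, rose 2.41-fold, and Mt1, a metallothionein, had 51.1, 58.1 and 31.1 CPM in the CFZ-DOX libraries, against 106, 127 and 119 CPM in the DMSO libraries and fell 2.51-fold. Of 13 protein genes of the mitochondrial genome 5 rose and 0 fell, with 9 lower under ribosomal scaling, led in abundance by mt-Co1, with 12916 ± 747 CPM with CFZ-DOX and 5066 ± 766 CPM with DMSO.

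The genes with the largest fold changes under all 5 scalings, among those averaging 5 CPM or more and with no overlap between the groups, were of mixed function. They are the extremes by choice, so their size is a description. The highest was Slc10a1 (ENSMUSG00000021135, chr12:80999957-81015479, minus strand, GRCm39), a bile acid transporter of hepatocytes, with 10.4, 15.2 and 19.6 CPM in the CFZ-DOX libraries, against 0.0256, 0.0216 and 0.242 CPM in the DMSO libraries. Its log2 fold change was 7.32 (SE 0.55, adjusted p = 2.46e-06), and 9.07 without DMSO 3, a value that rests on so few counts in the other DMSO libraries that it depends on the prior count. Ddn, a dendritic protein of neurons, had 7.88, 11.4 and 14.1 CPM in the CFZ-DOX libraries, against 0.128, 0.0432 and 0.0808 CPM in the DMSO libraries and Shd, an adaptor protein, 11.8, 13.7 and 13.1 CPM in the CFZ-DOX libraries, against 0.154, 0.195 and 0.0808 CPM in the DMSO libraries. The GTPase Rhof rose 60.6-fold, the hormone gene Amh 33.5-fold, the inhibitory receptor of T cells Lag3 31-fold and the amino acid transporter Slc43a2 30.4-fold. All of these genes averaged at most 1.03 CPM with DMSO, and Fosb, given above, was among the 12 highest as well.

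The 12 lowest genes held, after Ccnq, Fignl1, an ATPase of DNA repair, with 0.792, 1.35 and 1.46 CPM in the CFZ-DOX libraries, against 42.5, 44.6 and 40.8 CPM in the DMSO libraries, and the transcription factor genes Cebpb and Osr1, which fell 19.9-fold and 18.2-fold. Champ1, a zinc finger protein of chromosome alignment, had 2.81, 2.38 and 2.77 CPM in the CFZ-DOX libraries, against 52.4, 52.6 and 52.9 CPM in the DMSO libraries. The ubiquitin ligase adaptor Klhl9 fell 17.7-fold and Apln, which codes for the peptide apelin, 16.9-fold. In each of these genes every CFZ-DOX library was below every DMSO library, as the rule of choice required.

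Some genes were almost silent without the drugs. Efna2, an ephrin ligand, had 230, 251 and 311 counts in the CFZ-DOX libraries, against 0, 2 and 1 counts in the DMSO libraries. Cldn6, a tight junction protein, had 160, 270 and 335 counts with CFZ-DOX, against 2, 0 and 0 with DMSO. Iqcn had 102, 143 and 243 counts with CFZ-DOX and 0 in all 3 DMSO libraries. A count of 0 allows up to 3 counts per library, 0.0870 CPM of the library total on average, so Iqcn was at least 62.0-fold higher, which covers counting error only. In all, 173 genes had 0 counts in every DMSO library and at least 10 in every CFZ-DOX library, and 0 genes had the opposite pattern. Those that were tested had passed the filter on low counts through the CFZ-DOX libraries alone.

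Gene length went with the direction of change. Among 9454 protein-coding genes whose mean was 5 CPM or more, 46.8% of the quintile with the shortest span from first to last base rose and 30.04% fell. In the quintile with the longest span, above 69795 bases, 11.6% rose and 64.8% fell, and 52.2% fell under all 5 scalings, against 22.6% of the shortest quintile. The quintiles between them lay in order, with 36.3, 43.4 and 54.3% falling. The summed exon length ran in parallel, since 26% of the genes with the shortest and 64% of those with the longest exons fell. Within each quintile of exon length the genes of longer span fell more often than those of shorter span, with 28.8% against 23.3% in the first and 70.7% against 57.4% in the last. These shares describe the genes and were not tested, and the restriction to well expressed protein-coding genes was chosen after the data were seen. Genes of this set with a single exon block went against the order, since 54.2% of 166 such genes fell and 26.5% rose. Over all tested genes the reverse held, as 59.8% of 2108 genes with a single exon block rose and 16.1% fell. The order by span also held over all tested genes, where 15.6% of the shortest and 56.5% of the longest quintile fell.

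**Figure D5:**
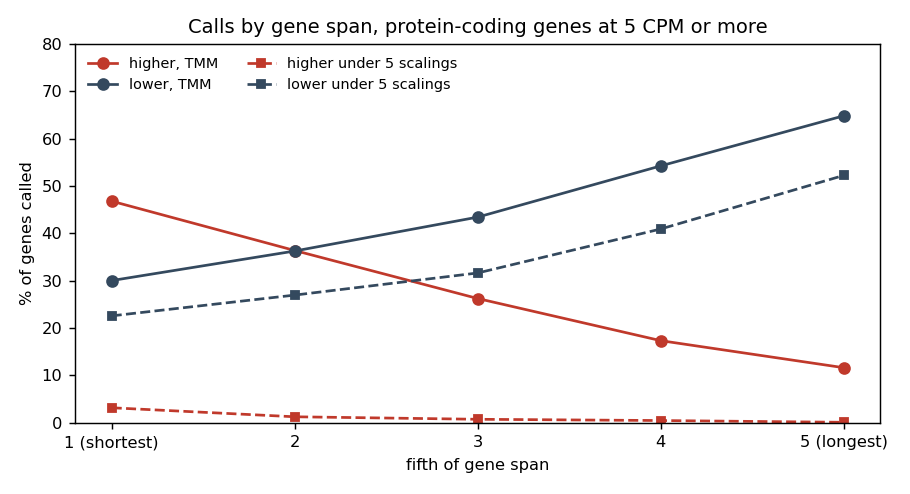
Percent of protein-coding genes averaging 5 CPM or more that were called higher (red) or lower (blue) with CFZ-DOX than with DMSO (vertical axis) by quintile of gene span (horizontal axis), with solid lines for TMM and dashed lines for calls under 5 scalings. The share called lower was 30.0% in the shortest and 64.8% in the longest quintile, and the share called higher 46.8% and 11.6%.

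Classes of genes differed likewise. Of 298 tested zinc finger genes with numbered Zfp symbols, most of which code for DNA-binding repressors, 26 rose (8.72%) and 206 fell (69.1%). Of these falls 182 held under all 5 scalings. The median log2 fold change was −1.29 beside 0.09 over all genes, which include transcripts that do not code for protein. Among protein-coding genes averaging 5 CPM or more the gap was smaller, as 66.5% of 176 such zinc finger genes fell, beside 45.8% of that whole set. Among transcripts that do not code for protein, 71.6% of 88 genes transcribed divergently from a promoter, 59.5% of 454 antisense genes and 63.2% of 892 processed pseudogenes rose under TMM, beside 38.7% of all tested genes. Under all 5 scalings 25% of the divergent genes and 20.7% of the antisense genes were called higher, beside 9.60% of all genes, but only 5.83% of the processed pseudogenes. For antisense genes and pseudogenes, reads of the partner or parent gene may be counted with them. Divergent genes, antisense genes and pseudogenes could also pass the filter through the CFZ-DOX libraries alone. They were not compared with genes of like abundance. Among the nuclear chromosomes the share that rose ranged from 31.2% of 420 genes on chromosome 18 to 45.7% of 816 genes on chromosome 17, and 14 of 25 tested genes of the mitochondrial chromosome (56%) rose and 0 fell.

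Markers of fibroblasts were abundant in both groups, at 31779 to 51063 CPM of the library total summed over the list with CFZ-DOX and 21326 to 26448 with DMSO, though Fap was at 0 and Lum under 0.5 CPM in all 6 libraries. This sum was mostly Col1a1, Col1a2, Col3a1 and Vim. Of 9 tested members 6 rose and 2 fell, with 4 lower under ribosomal scaling. The 2 that fell, under all 5 scalings, were the receptor genes Pdgfra and Pdgfrb. Pdgfrb had 43.8, 42.8 and 44.2 CPM of the library total in the CFZ-DOX libraries, against 255, 183 and 180 in the DMSO libraries. Most defining markers of other cell types were near 0. The macrophage list summed to 30.6 to 45.1 CPM with CFZ-DOX and 16 to 18.9 with DMSO, with Cd68 at 11.6 ± 1.72 CPM with CFZ-DOX and 1.09 ± 0.219 CPM with DMSO (TMM factors), with all 4 tested members called higher, while its defining genes Ptprc, Adgre1 and Itgam were under 0.5 CPM. The hepatocyte list summed to 8.27 to 20.8 CPM and 0.0747 to 0.419, nearly all of it Slc10a1, with Alb and Ttr under 0.5 CPM. Muscle markers summed to 3.26 to 4.81 and 0.538 to 0.741, endothelial markers to 3.08 to 4.63 and 1.70 to 2.61, and epithelial markers to 97.2 to 136 and 67.7 to 103, mostly Krt14, which rose 2.01-fold. The adipocyte list summed to 112 to 229 CPM with CFZ-DOX and 103 to 137 with DMSO, nearly all of it Lpl, lipoprotein lipase, which rose 2.05-fold under TMM and lost its call without CFZ-DOX 1 (log2 fold change 0.48), while Adipoq, Fabp4 and the other 3 members were under 0.5 CPM. The neuron list summed to 13.8 to 16.9 CPM with CFZ-DOX and 16.2 to 23.7 with DMSO, with 5 of its 6 members under 0.5 CPM. The part of other cells in the results was not tested.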

How the data were processed

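Counts per gene of 6 libraries were taken from the table that the authors deposited, whose values are raw read counts. Per the submitters' processing notes reads were handled with STAR 2.7.9a and Trimmomatic 0.39 and counted by featureCounts from Subread 2.0.2, with the mouse build GRCm39. For strand and multimapping no setting is given in the sources used here. Multimapping rules bear on near-identical copies such as Hspa1a and Hspa1b, and selection of polyadenylated RNA on histone genes.

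The groups were compared with the quasi-likelihood test of edgeR 4.0.16 in R 4.3.3, with robust estimation and TMM factors, on the 15351 genes that the filter of edgeR retained at a minimum count of 10 and a minimum total of 15. P-values were adjusted by Benjamini and Hochberg over all tested genes, with a threshold of 0.05, and fold changes used a prior count of 0.125. The standard error was taken as the size of the log2 fold change over the root of its F value. A call under all 5 scalings needed the same direction with TMM, DESeq2-type factors, the library size, the upper quartile and the summed counts of ribosomal protein genes. Alternatives were limma-voom (limma 3.58.1), DESeq2 1.42.0, other filters, a test against a minimum change, all 12 libraries in 1 fit, a replicate block and leaving out each library. The script was tested on simulated counts.

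The gene lists and the genes named were chosen with earlier results of these data known. The rule for named genes took genes chosen for these drugs, the 12 highest and 12 lowest genes under all 5 scalings, from each list at most 4 called members that moved with most of it and 2 that moved against it, and the most abundant, the near-silent and the most shifted genes. Those members were chosen by the same contrast, so their values are descriptions of the lists. Results for some genes of this rule are not reported here. Shares of a library's counts were compared by exact permutation tests over the libraries. Intervals and floors cover counting error only.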

Additional observations from a re-analysis of the deposited data

How the results depend on the processing

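The number of genes called higher was 5859 to 6184 and the number called lower 5000 to 6290 when single libraries were left out. Both numbers were within 1.5 times of 5937 and 5338 under DESeq2 (5946 higher and 5269 lower), limma-voom, DESeq2-type size factors, the library size, the upper quartile, a filter at 1 CPM, all 12 libraries in the fit and a test against a 1.5-fold change. They left that range with ribosomal scaling, at 1474 higher and 11040 lower, and without a filter, where 9349 genes were higher. The cause of these 3 moves was not tested. Leaving out the filter adds genes with low counts. Ribosomal scaling moved the median log2 fold change by −1.75, but not every gene alike, as Hspa1b went from 2.84 to 1.17 and Fn1 from 1.93 to 0.096. Replicate numbers did not pair the groups throughout, as same-numbered libraries deviated together with r = 0.336, 0.065 and 0.081. CFZ-DOX 1 correlated best with DMSO 1, against −0.094 with DMSO 2 and −0.252 with DMSO 3. CFZ-DOX 3 correlated best with DMSO 3, though weakly, and CFZ-DOX 2 also with DMSO 3 (0.176). With a replicate block 5970 genes were higher and 5508 lower.

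Of the 164 named genes, log2 fold changes turned round for 46 under ribosomal scaling, 5 with the library size, 1 with the upper quartile, 1 with the filter at 1 CPM and 3 among the fits that left out a library. Under ribosomal scaling these were Psmb5 −1.25, Psma7 −0.49, Psmb6 −0.61, Psmd4 −0.75, Psmd8 −0.25, Pomp −0.32, Psme1 −0.28, Nfe2l1 −1.63, Rps27a −0.16, Zfand2a −0.078, Hspa8 −0.50, Hsp90ab1 −0.80, Cct7 −0.49, Hmox1 −1.45, Sqstm1 −1.43, Nupr1 −0.24, Phgdh −0.31, Ddit3 −0.49, Kars1 −0.70, Dnajb9 −0.0013, Calr −0.13, Becn1 −0.10, Cdkn1a −1.40, Mdm2 −1.49, Bax −0.56, Eda2r −0.44, Abcb1b −1.26, Pttg1 −0.93, Aurka −1.26, Xrcc3 −1.26, Eef1a1 −0.12, Eef2 −0.086, Gapdh −0.10, Col1a1 −0.43, Col1a2 −0.49, mt-Co1 −0.40, Mrpl13 −0.30, Rrp9 −0.52, Hnrnph1 −1.17, Polr2a −0.012, Epha2 −0.10, Tnfaip3 −0.031, Pkm −0.15, Mtf1 −0.45, Krt14 −0.74 and Lpl −0.79. With the library size they were Nfe2l1 −0.32, Hmox1 −0.13, Sqstm1 −0.13, Cdkn1a −0.090 and Mdm2 −0.18, with the upper quartile Trp53 0.28 and with the filter at 1 CPM Trp53 0.050. Over the fits that left out a library, Nfe2l1 lay between −0.088 and 0.25, Hmox1 lay between −0.20 and 0.49 and Mdm2 lay between −0.076 and 0.39, and the lowest value fell below 0 without CFZ-DOX 1 for Nfe2l1 and without CFZ-DOX 3 for Hmox1 and Mdm2. The genes that turned round outside ribosomal scaling had not passed the threshold.

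Depth did not limit the abundant genes. Near-silent genes rest on few DMSO counts, and 3 libraries a group cannot reach an exact p under 0.1 for a single value. Which direction a gene took in absolute amount cannot be told from these libraries, as the scalings rest on different assumptions.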
